A study of Mus musculus with 10 samples.

Results

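This comparison sets 4T1-T mammary carcinoma cells carrying the second of a pair of hairpins against Serpine2 (shSerpine2-2) beside the same cells carrying a control hairpin (shRenilla). The libraries were taken by their labels, and the line was picked for its measured Serpine2 and Slpi levels. They are 4 of the 10 RNA-seq libraries of the series, with 2 libraries (A and B) in each group. 4T1 cells come from a mouse mammary tumour and metastasize readily, and 4T1-T is 1 clone of them, which the labels trace to a single cell. The series concerns breast cancer heterogeneity and vascular mimicry, the forming of perfused channels by carcinoma cells themselves. Every library came from 4T1-T cells infected to express a short hairpin RNA and grown in medium with serum. The shRenilla hairpin is directed at a luciferase from a sea pansy, which mouse cells do not carry, while shSerpine2-1 and shSerpine2-2 are directed at Serpine2 and shSlpi-1 and shSlpi-2 at Slpi. All lines derive from 1 clone, so differences among 4T1 clones are outside these data. Whether A and B of a group were separate cultures or infections is not stated, so p-values measure only how far these libraries differ, which may be technical.

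Serpine2, or protease nexin-1, is a secreted serpin that traps thrombin, urokinase and other serine proteases, sits on heparan sulfate at the cell surface, and is cleared with its captured protease through endocytic receptors. Slpi, the secretory leukocyte protease inhibitor, is a small secreted protein that blocks elastase of neutrophils. Tumour cells release both, and through the proteases they hold in check both bear on matrix turnover, coagulation and cell surface signalling. shSerpine2-2 was singled out because it has lowered Serpine2 with Slpi near control, so both genes are given here as a description, with no test.

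Serpine2 (chr1:79794197-79861180, minus strand, GRCm38), the gene targeted, stood at 3256 and 3145 normalized counts in the shRenilla libraries and 489 and 514 in the shSerpine2-2 libraries. A normalized count is a gene's read count divided by the library's size factor, recovered here from the deposited log2-like values. Both shSerpine2-2 libraries lay far below both controls, at 15.7% of the control mean, a 6.38-fold lower level (log2 change -2.67 ± 0.07, where ± gives the standard error here and in all changes that follow). The other hairpin went further, since shSerpine2-1 held 128 and 139, or 4.18% of control, and shSerpine2-2 exceeded it by 1.90 ± 0.07 on the log2 scale. Both shSlpi lines, at 1331 to 1731, lay between control and shSerpine2-2. Slpi (chr2:164354070-164389095, minus strand) stood at 1189 and 1313 normalized counts in the shRenilla libraries and 1111 and 1218 in the shSerpine2-2 libraries. These groups overlapped, and the shSerpine2-2 mean was 93.0% of control. Slpi in shSerpine2-1 was 326 and 414, or 29.6% of control, and the shSlpi lines held 60.9 to 147. Some Serpine2 message thus remained in this line, with Slpi close to control.

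**Figure D1:**
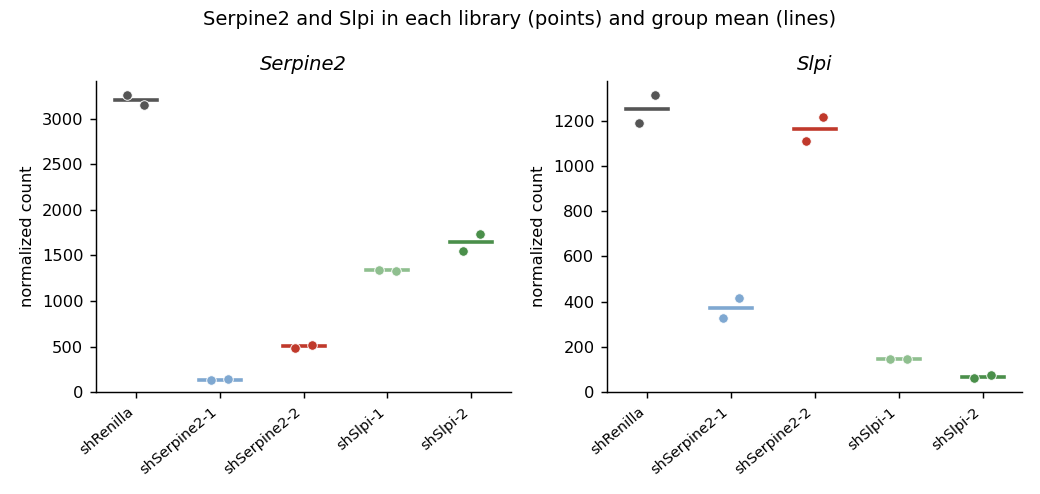
Normalized counts (vertical axes, from 0) of Serpine2 and Slpi in each of the 10 libraries, with a line at each group mean. Serpine2 in shSerpine2-2 (489 and 514) lies between shSerpine2-1 (128 and 139) and control (3256 and 3145), and Slpi in shSerpine2-2 (1111 and 1218) overlaps control (1189 and 1313).

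The 4 libraries held 16686493 to 24026620 reads, with both shSerpine2-2 libraries deeper than both controls. All 8 markers of epithelial carcinoma cells fixed for the check were expressed, with summed levels of 21574 to 22182 in control and 26906 to 27203 in shSerpine2-2. Of markers of other cell types, 2 of 12 endothelial, 1 of 11 leukocyte and 2 of 12 fibroblast genes reached a mean of 10 normalized counts, and none of these 5 passed the test. The defining genes were near 0 in the 4 libraries, with Pecam1 at 1.76 to 5.36, Ptprc at 0 to 2.11 and Col1a1 at 4.39 to 6.89, where 3 reads, the limit that a count of 0 allows, equal 2.30 to 3.48 normalized counts across the 10 libraries. Summed over the lists, endothelial markers ran from 755.9 to 759.6 in control and from 678.5 to 715.6 in shSerpine2-2, leukocyte markers from 145.4 to 147.5 and from 142.4 to 152.8, and fibroblast markers from 901.3 to 926.1 and from 789.3 to 800.2. Their part in the results was not tested.

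In shSerpine2-2, with Serpine2 lowered and Slpi near control, many transcripts differed from control by small amounts. Lowered Serpine2 cannot be told apart here from other differences between the shSerpine2-2 and shRenilla cells, and no cause was tested. A gene is said to have risen, fallen or changed where limma's adjusted p was under 0.05 over the 12299 genes tested, whose mean was 10 normalized counts or more. By that rule 3384 genes changed (27.5%), with 1741 higher (14.2%) and 1643 lower (13.4%), and their median change was 1.25-fold. The larger share of rises turned under other scalings, with 1557 higher and 1793 lower when scaled to total reads and 1561 and 1690 after quantile normalization. Changes of at least 2-fold were found for 105 genes, of which 14 were higher and 91 lower. Unadjusted p was under 0.05 for 4864 genes. The count of 3384 was 2134 without shRenilla A, 1610 without shRenilla B, 1843 without shSerpine2-2 A and 1617 without shSerpine2-2 B.

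The largest rises among genes with a mean of at least 50 included 2 chemokines that recruit myeloid cells. Ccl2 (chr11:82035571-82037453), the monocyte attractant, stood at 412 and 431 normalized counts in the shRenilla libraries and 862 and 917 in the shSerpine2-2 libraries (log2 change 1.08 ± 0.14, adjusted p = 4.84e-05). Cxcl5, an attractant of neutrophils, stood at 297 and 270.0 normalized counts in the shRenilla libraries and 604 and 545 in the shSerpine2-2 libraries (log2 change 1.02 ± 0.10, adjusted p = 7.76e-06). Rises and falls were ranked only where both shSerpine2-2 libraries lay on one side of both controls, so that separation was a condition of the choice. Trmt61a, the catalytic part of the enzyme that methylates adenosine in tRNA, stood at 859 and 821 normalized counts in the shRenilla libraries and 1714 and 1652 in the shSerpine2-2 libraries (log2 change 1.00 ± 0.06, adjusted p = 2.53e-08). The basal keratin Krt14 (log2 change 1.11 ± 0.12, adjusted p = 8.92e-06) and the lipid raft protein Mal (log2 change 1.17 ± 0.18, adjusted p = 0.00022) also rose. Mal and Rhox5 were weakly expressed, with control libraries at 40.8 to 51.6 and 37.5 to 59 and shSerpine2-2 libraries at 96.5 to 112 and 94.8 to 103. Also among the 12 largest rises were Chac1, Slc7a11, the ligand Wnt7a (0.91), the uracil-DNA glycosylase Ung (0.89) and the vesicle protein Syt7 (0.88), with log2 changes in brackets. For Rhox5 the call was lost without shRenilla B (adjusted p = 0.136) or shSerpine2-2 B (0.0691).

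After Serpine2 itself, the largest falls among genes with a mean of at least 50 were mostly of weakly expressed genes. Unc13c, a synaptic vesicle priming gene, stood at 71.6 and 80.4 normalized counts in the shRenilla libraries and 21.9 and 31.4 in the shSerpine2-2 libraries (log2 change -1.50 ± 0.22, adjusted p = 0.000189). B3galt2, a galactosyltransferase, stood at 273 and 282 normalized counts in the shRenilla libraries and 112 and 108 in the shSerpine2-2 libraries (log2 change -1.32 ± 0.16, adjusted p = 3.43e-05). Dmp1, a matrix protein of bone and dentin, stood at 113 and 127 normalized counts in the shRenilla libraries and 58.8 and 53.6 in the shSerpine2-2 libraries (log2 change -1.08 ± 0.20, adjusted p = 0.00103). Rmrp, the RNA of RNase MRP, fell by 1.21 on the log2 scale and the angiotensin-converting enzyme Ace fell by 1.31. The others were Smok4a (-1.24), the G-protein regulator Rgs22 (-1.21), the placental hormone gene Prl3d2 (-1.19), Trim43c (-1.14), the interferon-induced Ifi44 (-1.13) and Phxr4 (-1.12), given as log2 changes. The calls of Ace (adjusted p = 0.0645), Prl3d2 (0.0722) and Ifi44 (0.0686) were lost without shRenilla B, and those of Ace (0.0538) and Prl3d2 (0.0687) also without shSerpine2-2 B and shSerpine2-2 A, respectively. Of the 91 genes at least 2-fold lower, 66 had a mean under 50 normalized counts. Genes too weak to be tested summed to 9008 and 8849 normalized counts in the shSerpine2-2 libraries and to 11583 and 12224 in control, and genes with at least 1 read numbered 15389 and 15630 against 15887 and 16040 although the shSerpine2-2 libraries were deeper. Reads of the ribosomal precursor Rn45s made up 1.83% and 1.62% of the shSerpine2-2 libraries and 1.00% and 1.21% of control. The part of this low-level signal in the falls was not tested.

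Genes of the Atf4 program rose together. Atf4 is a transcription factor whose protein is made when translation initiation is slowed by amino acid shortage, endoplasmic reticulum stress or loss of heme, and it switches on genes that import and make amino acids and charge tRNA. Of 35 tested members, 22 rose (62.9%, against 14.2% of all genes tested) and 0 fell, with a median log2 change of 0.37 against 0.0025 over all genes. The promoter sequences of the leading members are shown first, because the element that Atf4 binds together with C/EBP proteins can be read in them. RefSeq promoter windows of GRCm38.p6 (250 bases before to 50 after a start site) were found by symbol for 30 of these 35 members. The core letters TGATGNAA, searched on both strands, occurred in windows of 9 of the 30 genes, against 4.51% of the 27025 genes with a window and 2.68% of the 9062 tested genes with one. Among the 20 matched members that rose, 7 held it (Chac1, Trib3, Slc7a11, Asns, Nupr1, Slc1a4 and Jdp2). A match is a description of letters and not a measured site. Below are the 250 bases before the start site, 5′ to 3′ on the gene's strand, of the 3 matched members that the naming rule takes, with matches in either orientation in capitals.
Slc7a11, chr3:50443614-50443863, minus strand: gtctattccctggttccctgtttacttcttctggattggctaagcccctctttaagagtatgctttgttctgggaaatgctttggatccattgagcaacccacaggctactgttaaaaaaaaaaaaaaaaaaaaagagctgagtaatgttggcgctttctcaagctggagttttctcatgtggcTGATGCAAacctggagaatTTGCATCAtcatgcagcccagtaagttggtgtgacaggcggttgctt
Chac1, chr2:119350992-119351241, plus strand: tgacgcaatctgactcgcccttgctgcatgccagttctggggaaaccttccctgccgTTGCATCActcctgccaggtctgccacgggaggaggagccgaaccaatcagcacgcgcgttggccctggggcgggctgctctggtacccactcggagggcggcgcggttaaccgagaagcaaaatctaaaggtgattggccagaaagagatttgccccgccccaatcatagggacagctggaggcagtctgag
Asns, chr6:7693210-7693459, minus strand: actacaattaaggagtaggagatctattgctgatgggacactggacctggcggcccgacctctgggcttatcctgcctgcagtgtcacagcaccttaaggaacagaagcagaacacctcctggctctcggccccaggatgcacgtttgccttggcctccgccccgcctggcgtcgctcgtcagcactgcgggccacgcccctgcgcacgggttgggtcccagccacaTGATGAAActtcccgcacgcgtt

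In Slc7a11 the 2 matches, 1 in each orientation, begin 66 and 47 bases before the start site, in Chac1 the match begins 193 bases before it, and in Asns 23 bases before it. Slc7a11, the cystine importer, stood at 577 and 596 normalized counts in the shRenilla libraries and 1165 and 1087 in the shSerpine2-2 libraries (log2 change 0.94 ± 0.07, adjusted p = 3.54e-07). Chac1, which degrades glutathione, stood at 277 and 337 normalized counts in the shRenilla libraries and 584 and 606 in the shSerpine2-2 libraries (log2 change 0.96 ± 0.10, adjusted p = 8.27e-06). Asns, asparagine synthetase, stood at 1452 and 1611 normalized counts in the shRenilla libraries and 2310.1 and 2352 in the shSerpine2-2 libraries (log2 change 0.61 ± 0.06, adjusted p = 6.15e-06). For each of the 3 genes both shSerpine2-2 libraries were above both controls, which the ranking of the largest rises required of Slc7a11 and Chac1. For Slc7a11 and Chac1 the shSerpine2-2 libraries were also the highest of the 10 libraries.

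By role, 7 of 9 tested transporters rose. They included the glycine transporter Slc6a9 (log2 change 0.81 ± 0.12, adjusted p = 0.00022) and Slc7a5, the leucine importer (log2 change 0.56 ± 0.06, adjusted p = 5.99e-06). Of 13 enzymes of amino acid and one-carbon metabolism 10 rose. Mthfd2, the mitochondrial folate enzyme, stood at 878 and 813 normalized counts in the shRenilla libraries and 1353 and 1379 in the shSerpine2-2 libraries (log2 change 0.69 ± 0.07, adjusted p = 4.49e-06), with no overlap. Among the 12 factors and feedback genes 4 rose, and the following were picked after their values were seen. Atf4 mRNA itself stood at 3363 and 3546 normalized counts in the shRenilla libraries and 4403 and 4730.2 in the shSerpine2-2 libraries (log2 change 0.40 ± 0.07, adjusted p = 0.000349), and the pseudokinase Trib3, an Atf4 target that feeds back on it, at 47.4 and 41.9 normalized counts in the shRenilla libraries and 86 and 76.6 in the shSerpine2-2 libraries (log2 change 0.85 ± 0.20, adjusted p = 0.00516). Ddit3, which encodes Chop and is tied to the death arm of the response, did not pass the test (log2 change 0.23 ± 0.22, adjusted p = 0.457), nor did Atf3 (log2 change -0.25 ± 0.13, adjusted p = 0.161). The calls of Trib3 (adjusted p = 0.0563) and Jdp2 (0.0761) were lost without shRenilla B, and those of Trib3 (0.0612) and Jdp2 (0.0714) also without shSerpine2-2 A and shSerpine2-2 B, respectively. Against shSerpine2-1, 11 of the 35 members were higher and 1 was lower, where 7.69% of all genes tested were higher and 6.98% lower. Above all 4 other groups lay 5 members (Slc7a11, Chac1, Slc6a9, Mthfd2 and Psph), against 0.488% of all genes. The list's median against control was 0.19 in shSerpine2-1, 0.15 in shSlpi-1 and 0.22 in shSlpi-2, all against the same shRenilla libraries.

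The enzymes that charge tRNA with amino acids, many of which are Atf4 targets, rose as well. Of 20 cytosolic aminoacyl-tRNA synthetases, 17 rose (85%) and 0 fell, with a median log2 change of 0.28. Aars, for alanine, stood at 2143 and 1951 normalized counts in the shRenilla libraries and 3227 and 3086 in the shSerpine2-2 libraries (log2 change 0.63 ± 0.06, adjusted p = 4.56e-06), and Nars, for asparagine, at 5062 and 4822 normalized counts in the shRenilla libraries and 7311 and 7403 in the shSerpine2-2 libraries (log2 change 0.57 ± 0.05, adjusted p = 2.96e-06). Neither overlapped control. Yars (0.52) and Tars (0.43) were the next by p, given as log2 changes, and Dars, Farsb and Qars did not pass the test (0.16, -0.0011 and 0.07). The list's median against the same control was 0.22 in shSerpine2-1, 0.14 in shSlpi-1 and 0.29 in shSlpi-2. Of the 20 members, 3 were higher in shSerpine2-2 than in shSerpine2-1 (7.69% of all genes were). Windows were found for 12 of the 20 genes, and 5 held TGATGNAA (Aars, Gars, Iars, Tars and Yars), all of which rose, though the call of Iars was lost without shRenilla A (adjusted p = 0.0908) or shSerpine2-2 B (0.109). The stretches before the start site of the 2 of them with a match there that the naming rule takes are shown with the matches in capitals.
Aars, chr8:111033592-111033841, plus strand: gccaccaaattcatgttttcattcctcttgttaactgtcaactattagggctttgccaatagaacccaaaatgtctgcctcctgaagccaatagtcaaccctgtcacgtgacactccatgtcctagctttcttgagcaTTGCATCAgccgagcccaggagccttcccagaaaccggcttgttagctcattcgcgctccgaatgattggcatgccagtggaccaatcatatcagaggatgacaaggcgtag
Tars, chr15:11399659-11399908, minus strand: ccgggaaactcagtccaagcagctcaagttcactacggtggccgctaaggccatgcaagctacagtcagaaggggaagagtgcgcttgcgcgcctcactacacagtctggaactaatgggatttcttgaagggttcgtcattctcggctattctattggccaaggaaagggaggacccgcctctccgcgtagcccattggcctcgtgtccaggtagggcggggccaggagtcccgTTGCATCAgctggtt

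**Figure D2:**
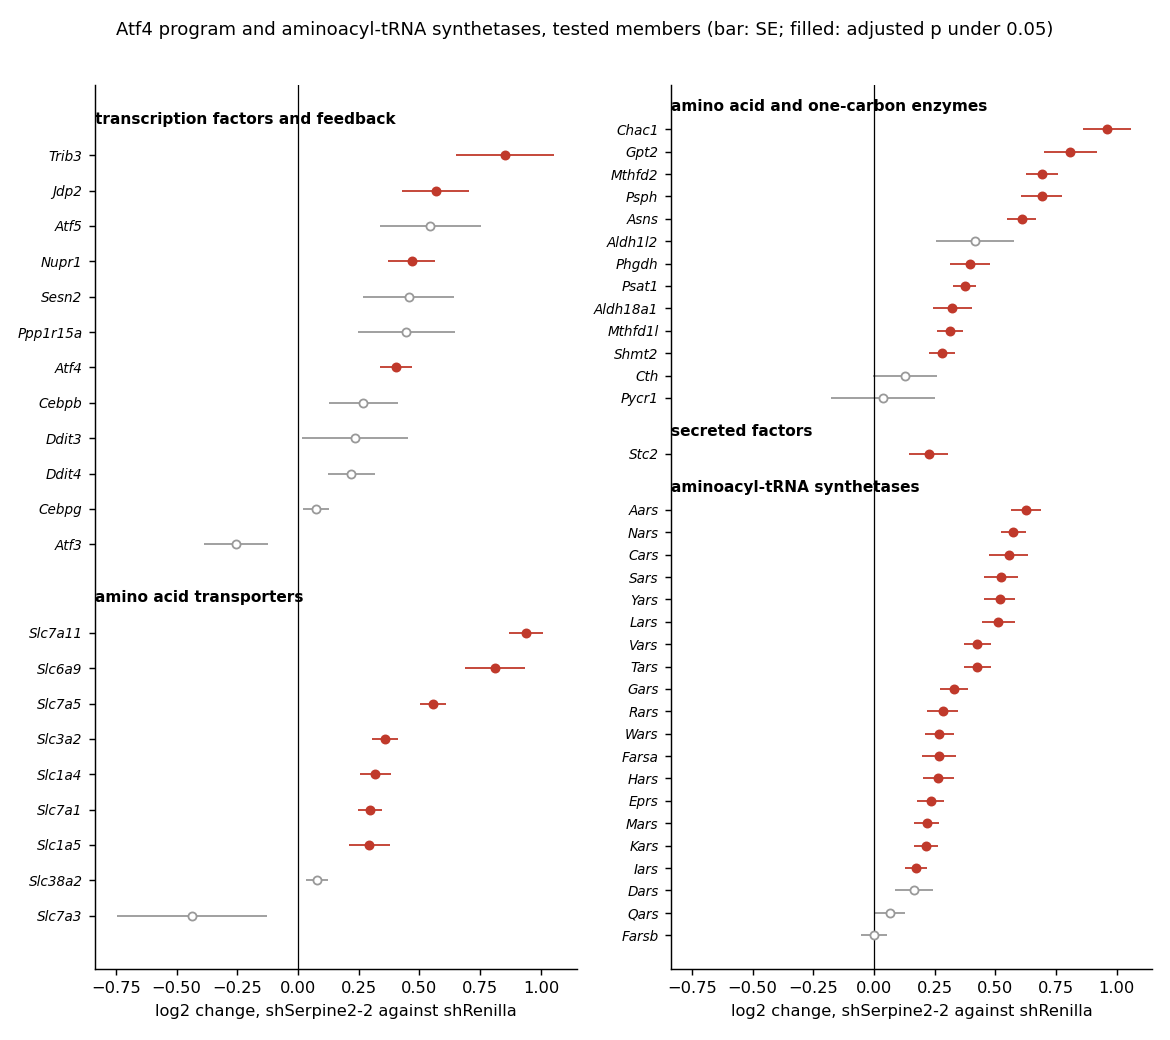
Log2 change in shSerpine2-2 against shRenilla (horizontal axis, bars are the SE) for every tested member of the Atf4 program by role and for the aminoacyl-tRNA synthetases, with members past adjusted p of 0.05 filled. In all, 22 of 35 program members and 17 of 20 synthetases are filled, all to the right of 0, from Chac1 at 0.96 to Iars at 0.17.

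Endoplasmic reticulum chaperones were moderately higher. Of 17 chaperones and folding enzymes 11 rose and 1 fell (64.7% and 5.88%, against 14.2% and 13.4% of all genes). Of 11 sensors, factors and degradation genes 2 rose and 1 fell (18.2% and 9.09%). The calcium-binding chaperone Calr stood at 3980.3 and 4182 normalized counts in the shRenilla libraries and 5381 and 5308 in the shSerpine2-2 libraries (log2 change 0.39 ± 0.05, adjusted p = 4.64e-05), and Creld2, a small stress-induced folding factor, at 359 and 339 normalized counts in the shRenilla libraries and 549.6 and 505 in the shSerpine2-2 libraries (log2 change 0.59 ± 0.09, adjusted p = 0.000137). Neither overlapped control. The members that fell were Ero1l, the oxidase that is also a hypoxia target (log2 change -0.43 ± 0.05, adjusted p = 1.13e-05), and Xbp1, a factor of the same response (log2 change -0.25 ± 0.06, adjusted p = 0.00634), whose call was lost without shSerpine2-2 A (0.0736). Against shSerpine2-1, 12 of the 28 members were higher and 1 was lower, against 7.69% and 6.98% of all genes.

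Many lipid synthesis genes rose and none of those tested fell. Of 25 tested genes of cholesterol synthesis and uptake 18 rose (72%), with a median log2 change of 0.24, and of 16 fatty acid synthesis genes 8 rose (50%), with a median of 0.21. Cyp51, the demethylase of lanosterol, stood at 4274 and 4229 normalized counts in the shRenilla libraries and 5605 and 5577 in the shSerpine2-2 libraries (log2 change 0.40 ± 0.05, adjusted p = 6.32e-05). Fasn, fatty acid synthase, stood at 6778 and 6452 normalized counts in the shRenilla libraries and 8620.5 and 8340.0 in the shSerpine2-2 libraries (log2 change 0.36 ± 0.05, adjusted p = 4.34e-05), and the desaturase Fads1 rose by 0.49 on the log2 scale. All of these genes were without overlap. The cholesterol list had medians of 0.15 in shSerpine2-1, 0.21 in shSlpi-1 and 0.39 in shSlpi-2 against the same control libraries. The sterol element letters TCACNCCAC, searched on both strands, occurred in the window of 1 of 18 matched cholesterol genes (Hmgcs1) and of 0 of 13 matched fatty acid genes, against 1.44% of all genes with a window.

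Epithelial genes were higher and some mesenchymal genes lower. Of 36 junction and identity genes 17 rose and 2 fell (47.2% and 5.56%, against 14.2% and 13.4% of all genes), with a median log2 change of 0.24. Of 8 tested keratins 5 rose (62.5%). Krt7, a simple-epithelium keratin, stood at 1991 and 1831 normalized counts in the shRenilla libraries and 3092 and 3137 in the shSerpine2-2 libraries (log2 change 0.71 ± 0.06, adjusted p = 6.11e-07), and Krt14, a basal keratin, at 115 and 120.1 normalized counts in the shRenilla libraries and 244 and 266 in the shSerpine2-2 libraries. Epcam, an epithelial adhesion molecule (log2 change 0.40 ± 0.05, adjusted p = 8.84e-05), the splicing regulator Esrp1 (log2 change 0.49 ± 0.08, adjusted p = 0.000469) and the tight junction protein Cgn also rose. Cdh1, E-cadherin, stood at 9519.8 and 9155 normalized counts in the shRenilla libraries and 11135 and 11157 in the shSerpine2-2 libraries, a small rise without overlap (log2 change 0.26 ± 0.04, adjusted p = 0.000533). The members that fell were the surface glycoprotein Cd24a (log2 change -0.49 ± 0.08, adjusted p = 0.000438) and the desmosome plate gene Pkp2 (log2 change -0.33 ± 0.07, adjusted p = 0.00284).

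Of 18 tested mesenchymal genes 5 fell (27.8%, against 13.4% of all genes) and 1 rose, with a median log2 change of -0.13. Acta2, smooth muscle actin, was low in every library, at 60 and 61.7 normalized counts in the shRenilla libraries and 22.8 and 15.3 in the shSerpine2-2 libraries (log2 change -1.65 ± 0.24, adjusted p = 0.000161), with no overlap. Spp1, osteopontin, an abundant secreted protein here, stood at 23343 and 25626 normalized counts in the shRenilla libraries and 15464 and 15891 in the shSerpine2-2 libraries (log2 change -0.64 ± 0.05, adjusted p = 5.81e-07), and the repressor Zeb2 at 4759.9 and 5225 normalized counts in the shRenilla libraries and 3962 and 3798 in the shSerpine2-2 libraries (log2 change -0.36 ± 0.06, adjusted p = 0.0003). The actin-binding Cald1 fell by 0.26 on the log2 scale, and the single rise was of S100a4 (log2 change 0.40 ± 0.13, adjusted p = 0.0308), whose call was lost without either shRenilla library (0.219 and 0.0794) or either shSerpine2-2 library (0.0518 and 0.23). Vim, the mesenchymal filament, and Fn1, fibronectin, did not pass the test (0.05 and -0.08). In a culture measured in bulk, fewer cells of a type and less RNA per cell cannot be told apart. Against shSerpine2-1, 5 of the 18 mesenchymal members were lower and 2 higher, against 6.98% and 7.69% of all genes. The epithelial medians against the shared control were 0.20 in shSerpine2-1, 0.34 in shSlpi-1 and 0.64 in shSlpi-2, and the mesenchymal medians 0.01, -0.02 and 0.05.

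**Figure D3:**
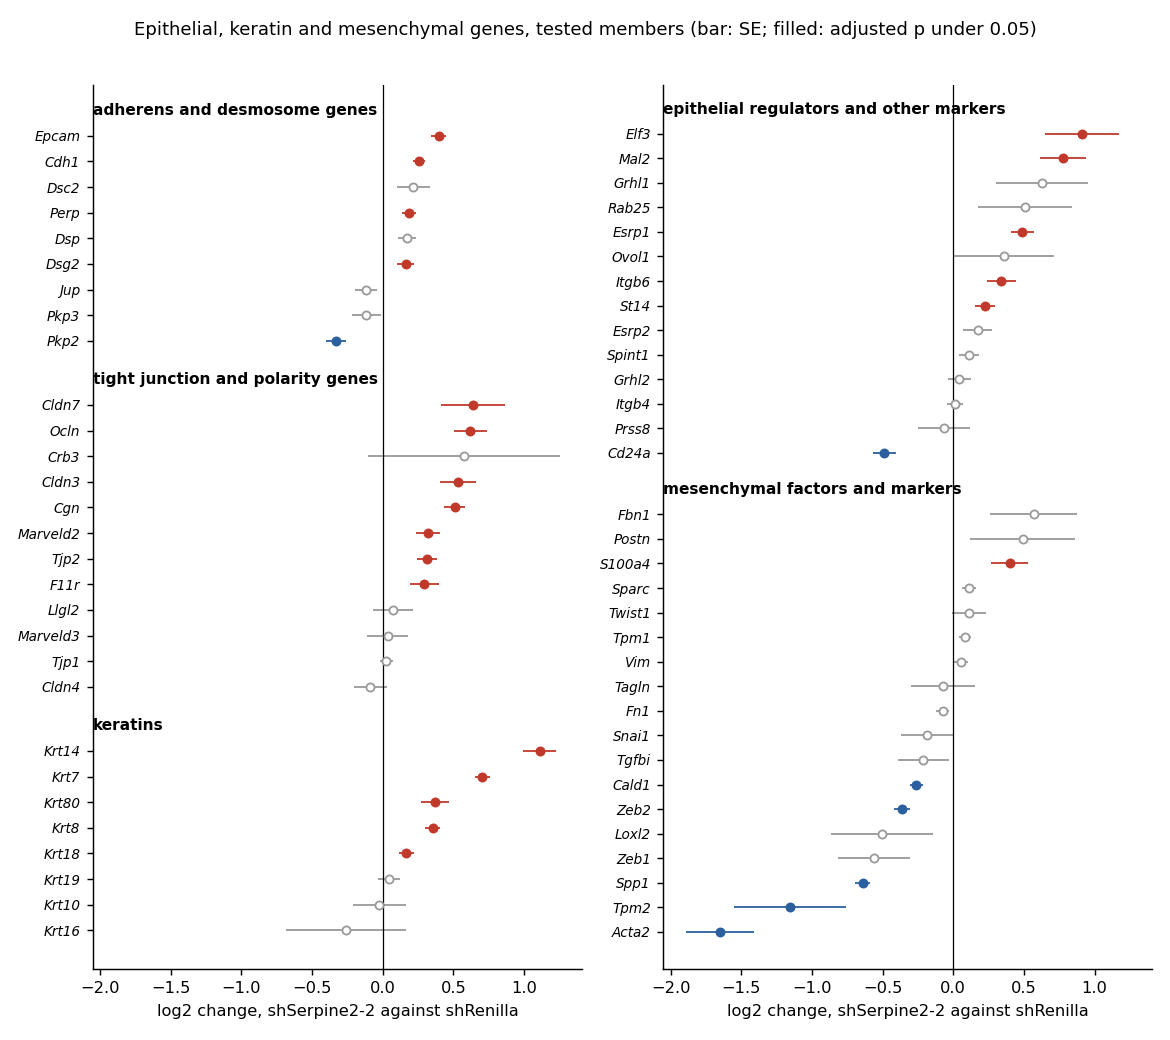
Log2 change in shSerpine2-2 against shRenilla (horizontal axis, bars are the SE) for the tested epithelial, keratin and mesenchymal genes, 1 of which is not shown, with members past adjusted p of 0.05 filled. Epithelial and keratin genes lie mostly to the right of 0, up to Krt14 at 1.11, and the mesenchymal list reaches furthest left, to Acta2 at -1.65.

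Secreted signals moved in both directions. Of 16 tested cytokines and chemokines 6 rose and 1 fell (37.5% and 6.25%, against 14.2% and 13.4% of all genes). Of 12 NF-kB factors and feedback genes 3 rose and 1 fell (25% and 8.33%). Beside Ccl2 and Cxcl5, the scavenger-type chemokine Cxcl16 rose (log2 change 0.40 ± 0.07, adjusted p = 0.000789). Tslp, an epithelial cytokine that acts on dendritic cells, stood at 1532 and 1582 normalized counts in the shRenilla libraries and 1039 and 1011 in the shSerpine2-2 libraries (log2 change -0.60 ± 0.10, adjusted p = 0.000412), and its level in shSerpine2-1 was 618 and 609.5. The cytokines and chemokines differed between the Serpine2 lines, since 10 of the 16 were higher in shSerpine2-2 than in shSerpine2-1 and 0 were lower (7.69% and 6.98% of all genes), with a median difference of 0.62 on the log2 scale against 0.0096 over all genes.

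Of 27 secreted angiogenic factors 8 rose and 6 fell (29.6% and 22.2%, against 14.2% and 13.4% of all genes). This list shares Ccl2 and Cxcl5, which rose, with the cytokines and chemokines, and Spp1, which fell, with the mesenchymal and mineralization lists. Thrombospondin 1 (Thbs1), an inhibitor of vessel growth, stood at 5082 and 4793 normalized counts in the shRenilla libraries and 7285 and 6939 in the shSerpine2-2 libraries (log2 change 0.53 ± 0.06, adjusted p = 1.09e-05), and Pdgfb, which recruits pericytes, at 278 and 272 normalized counts in the shRenilla libraries and 404 and 399.7 in the shSerpine2-2 libraries (log2 change 0.54 ± 0.09, adjusted p = 0.000393). Angpt2, which destabilizes vessels, stood at 324 and 274 normalized counts in the shRenilla libraries and 171 and 182 in the shSerpine2-2 libraries (log2 change -0.76 ± 0.12, adjusted p = 0.00031), and the EGF receptor ligand Tgfa fell by 0.30 on the log2 scale. Vegfa, the main vessel growth factor, did not pass the test (0.02 ± 0.07). On the list of genes from the vascular mimicry literature 5 of 20 tested members rose (25%) and 0 fell. Nrp2, a co-receptor for VEGF and semaphorins, led at 17663 and 17934 normalized counts in the shRenilla libraries and 25304 and 25099.8 in the shSerpine2-2 libraries (log2 change 0.50 ± 0.04, adjusted p = 1.94e-06) and lay above all 4 other groups.

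Around Serpine2 itself, genes of its proteases and partners changed in both directions. Of 22 tested members 8 rose and 4 fell (36.4% and 18.2%, against 14.2% and 13.4% of all genes). Among the proteases that Serpine2 can inhibit, tissue plasminogen activator (Plat) stood at 155 and 142 normalized counts in the shRenilla libraries and 99.2 and 98.8 in the shSerpine2-2 libraries (log2 change -0.58 ± 0.15, adjusted p = 0.0104), while urokinase (Plau) did not pass the test (0.08 ± 0.05). The urokinase receptor Plaur fell (log2 change -0.32 ± 0.09, adjusted p = 0.0146). The calls of Plat and Plaur depended on single libraries, with adjusted p-values of up to 0.0798 for Plat without shRenilla A and 0.143 for Plaur without shRenilla B. Of the receptors and matrix proteins that hold or clear serpins, 4 of 8 rose and 1 fell (50% and 12.5%). The heparan sulfate carriers Sdc1 (1639 and 1559 normalized counts in the shRenilla libraries and 2129 and 2143 in the shSerpine2-2 libraries) and Gpc1 (3569 and 3344 normalized counts in the shRenilla libraries and 4527 and 4585 in the shSerpine2-2 libraries) rose by 0.42 and 0.40 on the log2 scale, and Sdc2 fell by 0.26. Lrp1, the main clearance receptor, did not pass the test (-0.13 ± 0.05).

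Other protease inhibitors also changed in both directions. Of 19 tested members 6 rose and 3 fell (31.6% and 15.8%, against 14.2% and 13.4% of all genes). Serpinh1, the collagen chaperone, and Spint2, an inhibitor of membrane serine proteases, rose by 0.42 and 0.41 on the log2 scale. Reck, a membrane inhibitor of metalloproteinases, stood at 348 and 333 normalized counts in the shRenilla libraries and 183 and 191 in the shSerpine2-2 libraries (log2 change -0.86 ± 0.11, adjusted p = 4.64e-05), with no overlap. Of 7 tested matrix metalloproteinases 2 rose (28.6%) and 0 fell against control, with a median log2 change of 0.0043. In contrast, 5 of the 7 were higher than in shSerpine2-1 (7.69% of all genes), with a median difference over the list of 0.90. Mmp3, picked after its values were seen, shows this, with 787 and 844 in control, 785 and 747 in shSerpine2-2 and 381 and 373 in shSerpine2-1 (difference between the Serpine2 lines 1.02 ± 0.08, adjusted p = 8.27e-07). Of 10 tested cathepsins 3 rose and 2 fell (30% and 20%). The rises included Ctsz (log2 change 0.56 ± 0.06, adjusted p = 1.58e-05) and the abundant Ctsl (log2 change 0.28 ± 0.06, adjusted p = 0.0025). The falls were of Ctsh (log2 change -0.32 ± 0.06, adjusted p = 0.00103) and Ctso (log2 change -0.58 ± 0.16, adjusted p = 0.0142), and the call of Ctso was lost without shRenilla A (0.0601), shRenilla B (0.12) or shSerpine2-2 B (0.198).

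Many genes of ribosome making, respiration and protein turnover were higher in small steps. Of 25 genes on the list of ribosome biogenesis and Myc 17 rose (68%) and 3 fell, of 37 proteasome subunits 22 rose (59.5%) and 0 fell, of 82 ribosomal proteins 22 rose (26.8%) and 0 fell, and of 74 nuclear genes of oxidative phosphorylation 27 rose (36.5%) and 0 fell. The falls on the first list were of the nucleolar proteins Nop58 (-0.20) and Nop56 (-0.17) and of the growth factor-induced transcription factor Myc (-0.22), given as log2 changes. All 3 of these calls were lost without shRenilla B (adjusted p = 0.0697, 0.352 and 0.263) or shSerpine2-2 B (0.11, 0.092 and 0.0993), and those of Nop56 and Myc also without shSerpine2-2 A (0.183 and 0.227). Nhp2, a protein of the pseudouridylation complex, stood at 623 and 626 normalized counts in the shRenilla libraries and 921 and 957 in the shSerpine2-2 libraries (log2 change 0.59 ± 0.07, adjusted p = 1.78e-05), and the proteasome ATPase Psmc1 at 2142 and 2037 normalized counts in the shRenilla libraries and 2942 and 3034 in the shSerpine2-2 libraries (log2 change 0.52 ± 0.06, adjusted p = 2.12e-05). Ndufa9, a complex I subunit, stood at 626 and 605 normalized counts in the shRenilla libraries and 902 and 974 in the shSerpine2-2 libraries (log2 change 0.61 ± 0.07, adjusted p = 2.81e-05). None of these 3 overlapped control. The medians of these lists in shSerpine2-2 were 0.26, 0.24, 0.19 and 0.23 on the log2 scale. Those of the first 3 lists against the same control were 0.14, 0.10 and 0.02 in shSerpine2-1. In shSlpi-1 they were 0.13, 0.17 and 0.25, and in shSlpi-2 they were 0.20, 0.27 and 0.37. For oxidative phosphorylation the medians against the same control were -0.03 in shSerpine2-1, 0.14 in shSlpi-1 and 0.34 in shSlpi-2, and 20 members were higher in shSerpine2-2 than in shSerpine2-1 while 0 were lower (7.69% and 6.98% of all genes). Ribosomal protein genes have many near-identical pseudogenes that can share reads, so single members are uncertain.

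Of 32 DNA replication genes 14 rose (43.8%, against 14.2% of all genes) and 0 fell. The rises included the cell cycle factor E2f1 (log2 change 0.66 ± 0.09, adjusted p = 0.000111). Of 30 mitosis genes 6 rose and 4 fell (20% and 13.3%), shares close to the 14.2% and 13.4% of all genes. The spindle protein Nusap1 was among the falls (log2 change -0.26 ± 0.05, adjusted p = 0.00125). Clustered histone genes were lower, with 24 of 56 fallen (42.9%), 0 risen and a median log2 change of -0.38. The histone medians against the same control were -0.30 in shSerpine2-1, -0.44 in shSlpi-1 and 0.04 in shSlpi-2. Against shSerpine2-1, 0 of the 56 were higher and 0 lower. Hist1h1c, a linker histone, stood at 1280.0 and 1321 normalized counts in the shRenilla libraries and 936 and 966 in the shSerpine2-2 libraries (log2 change -0.45 ± 0.08, adjusted p = 0.00105). Histone genes are near copies of each other that can share reads, so single members are uncertain. Of 31 Nrf2 antioxidant genes 12 rose (38.7%) and 0 fell, and this list shares Slc7a11 and Chac1 with the Atf4 program. Fth1, the ferritin heavy chain, stood at 19836 and 21015 normalized counts in the shRenilla libraries and 25676 and 27370.3 in the shSerpine2-2 libraries (log2 change 0.38 ± 0.05, adjusted p = 5.23e-05), and the autophagy receptor Sqstm1, on the lysosome list, at 1399 and 1366 normalized counts in the shRenilla libraries and 2184 and 2190.1 in the shSerpine2-2 libraries (log2 change 0.66 ± 0.06, adjusted p = 4.84e-06). Neither overlapped control.

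Among 37 targets of ERK signalling and immediate early genes, 5 were risen and 7 fallen (13.5% and 18.9%), shares close to the 14.2% and 13.4% of all genes tested. Egr1, an immediate early factor, stood at 902 and 910.1 normalized counts in the shRenilla libraries and 529 and 482 in the shSerpine2-2 libraries (log2 change -0.84 ± 0.09, adjusted p = 1.58e-05), whereas the stress-induced Ier5 stood at 867 and 835 normalized counts in the shRenilla libraries and 1339 and 1383 in the shSerpine2-2 libraries (log2 change 0.68 ± 0.08, adjusted p = 1.58e-05). The ERK phosphatase Dusp6 fell by 0.36 on the log2 scale. Of 36 hypoxia and glycolysis genes 7 rose and 7 fell (19.4% each, against 14.2% and 13.4% of all genes). Of the 21 glycolytic genes 6 rose and 2 fell, and of the 15 other hypoxia targets 1 rose and 5 fell. Glycolytic Pgam1 (0.33) and Tpi1 (0.31) rose on the log2 scale, and the hypoxia target Car9, carbonic anhydrase 9, stood at 2922 and 2842 normalized counts in the shRenilla libraries and 1679 and 1681 in the shSerpine2-2 libraries (log2 change -0.78 ± 0.06, adjusted p = 5.22e-07). Of 48 interferon-stimulated genes 9 fell and 3 rose (18.8% and 6.25%, against 13.4% and 14.2% of all genes), led by Samd9l (log2 change -0.57 ± 0.09, adjusted p = 0.00022). Of 8 mineralization genes 5 fell (62.5%) and 1 rose, and those that fell included Dmp1, Spp1 and the bone peptidase Phex (log2 change -0.57 ± 0.09, adjusted p = 0.000195). This list was not lower in shSerpine2-2 alone. Its median against the same control was -0.31 in shSerpine2-2, -0.42 in shSerpine2-1, -0.66 in shSlpi-1 and -1.14 in shSlpi-2.

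**Figure D4:**
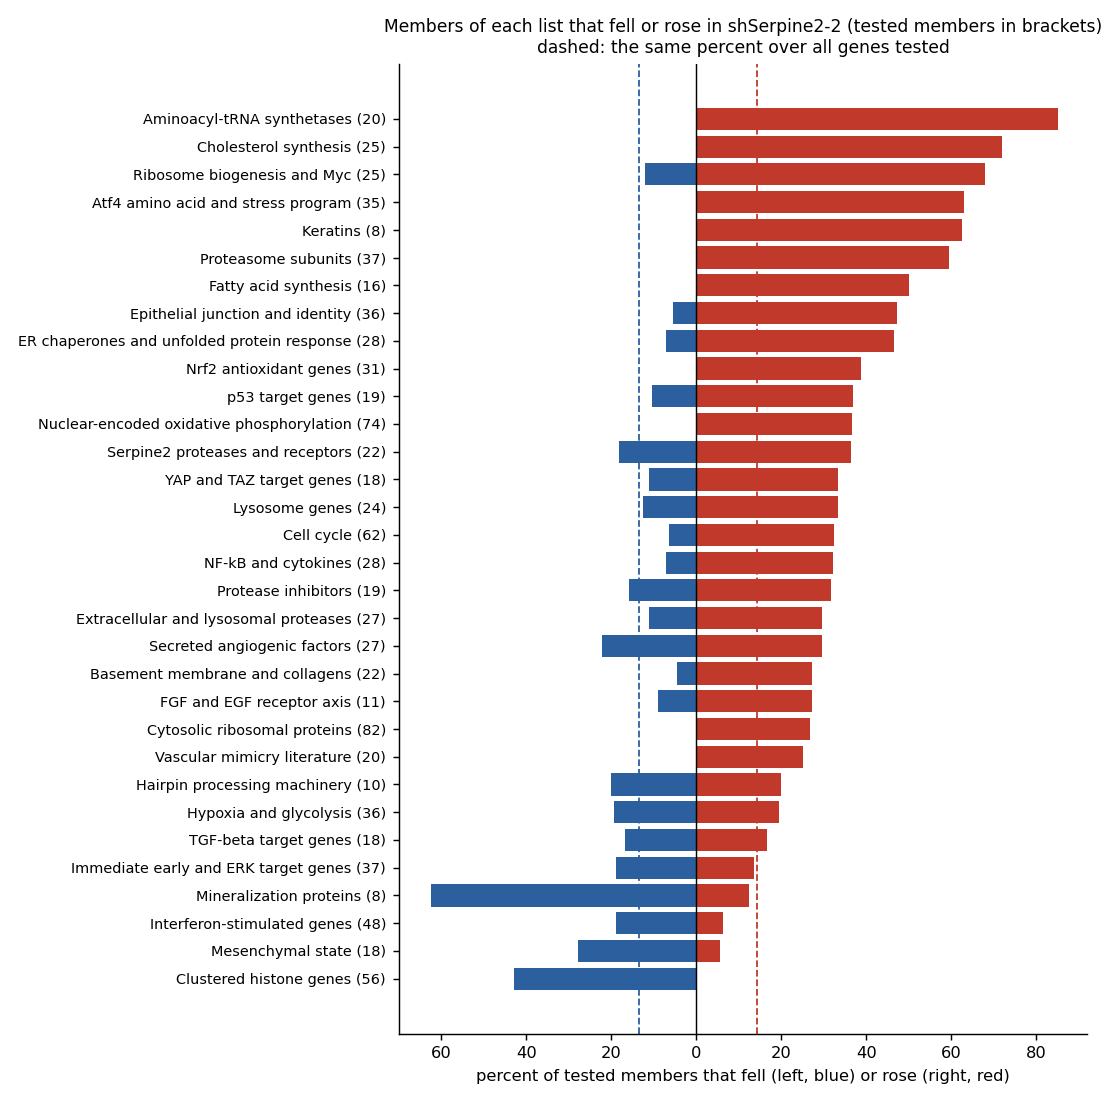
Percent of tested members of each list (number in brackets) that rose (red, right) or fell (blue, left) in shSerpine2-2 against shRenilla, with dashed lines at the percent over all genes tested (14.2 higher, 13.4 lower). Aminoacyl-tRNA synthetases head the list with 17 of 20 higher, and clustered histone genes close it with 24 of 56 lower.

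The direct contrast of the Serpine2 lines shows where shSerpine2-2, with more Serpine2 and more Slpi left, departs from shSerpine2-1. Here 1805 genes differed (14.7%), with 946 higher (7.69%) and 859 lower (6.98%) in shSerpine2-2, a split that was 775 higher and 897 lower after quantile normalization. Among the 1741 genes above control, 593 were also above shSerpine2-1, 11 below it and 1137 not called against it. Among the 1643 below control, 559 were also below shSerpine2-1, 27 above it and 1057 not called. The count of 1805 became 404 without shSerpine2-2 B, 696 without shSerpine2-2 A, 498 without shSerpine2-1 A and 635 without shSerpine2-1 B, and it was 3180 without shSlpi-2 A, 3181 without shSlpi-2 B and 3185 without both.

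Cck, the gut and brain peptide cholecystokinin, showed the largest rise by the naming rule over shSerpine2-1. It stood at 253 and 302 in control, 418 and 493 in shSerpine2-2 and 91.3 and 89.4 in shSerpine2-1 (difference 2.32 ± 0.16, adjusted p = 2.05e-07), so the lines lay on opposite sides of control. The homeobox gene Rhox5 was higher in shSerpine2-2 by 1.40 on the log2 scale, and without shSerpine2-1 B the call of Rhox5 was lost (adjusted p = 0.0566). Mgp, the matrix Gla protein, stood at 114 and 118 in control, 123 and 148 in shSerpine2-2 and 36.8 and 47.6 in shSerpine2-1, and it did not pass the test against control (adjusted p = 0.57) but did against shSerpine2-1 (1.66 ± 0.26, adjusted p = 0.000737). The kinase gene Nim1 (-1.24), Muc6 (-1.19), Phxr4 (-1.12), the protease Tmprss11f (-1.08), Prg4 (-1.04) and Mettl21c (-1.03) were lower than in shSerpine2-1 by these log2 differences. The call of Tmprss11f was lost without shSerpine2-1 A (0.0934) or shSerpine2-2 B (0.0973), and that of Prg4 without shSerpine2-1 B (0.182), shSerpine2-2 A (0.0678) or shSerpine2-2 B (0.0881).

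At 133 genes (1.08%) shSerpine2-2 stood apart from all 4 other groups, above them at 60 (0.488%) and below them at 73 (0.594%). With scaling to total reads the split turned from 45.1% above to 57%, with 77 above and 58 below. The count was 35 without shSerpine2-2 A, 39 without shSerpine2-2 B, between 67 and 88 without any single library of shRenilla, shSerpine2-1 or shSlpi-1, 227 without shSlpi-2 A and 231 without shSlpi-2 B. Ccl2 led the genes above, with 862 and 917 against 146 to 431 in the 8 other libraries, a log2 gap of 1.08 to the nearest group. Cxcl5 followed, with 604 and 545 against 189 to 304. Itgb3, the beta chain of the vitronectin-binding integrin, held 435 and 432 against 180.4 to 287, and Ptgs1, the constitutive cyclooxygenase, 1044 and 963 against 374 to 666. For Ccl2, Cxcl5, Itgb3 and Ptgs1 the place above all groups held in all 20 alternatives that could be run. Cck (418 and 493 against 51.2 to 302) lost it without shRenilla A or shSerpine2-2 B, where its adjusted p against control was 0.0581 and 0.0701, and Slc6a9 (351 and 352 against 198 to 267) without shSlpi-1 A.

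Below all groups, the kinase gene Sgk3 was the best expressed of those named, with 249 and 261 against 364 to 494 in the other 8 libraries (log2 change -0.93 ± 0.10, adjusted p = 1.05e-05 against control). The mucin gene Muc6 held 69.4 and 70.5 against 112 to 276. Ttn, the giant muscle protein, was also weak and below the other 8 libraries in both. These 3 kept their place in all 20 alternatives. Dnah11, a ciliary motor gene, held 20.2 and 30.6 against 50.6 to 76 and lost its place without shSerpine2-2 A (adjusted p = 0.0518 against control). Unc13c (21.9 and 31.4 against 40.7 to 83.2) and Prg4 (34.2 and 33.7 against 51.2 to 97.5) were weak and lost it in 7 and 10 of the 20 alternatives, among them those without shSerpine2-2 A.

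**Figure D5:**
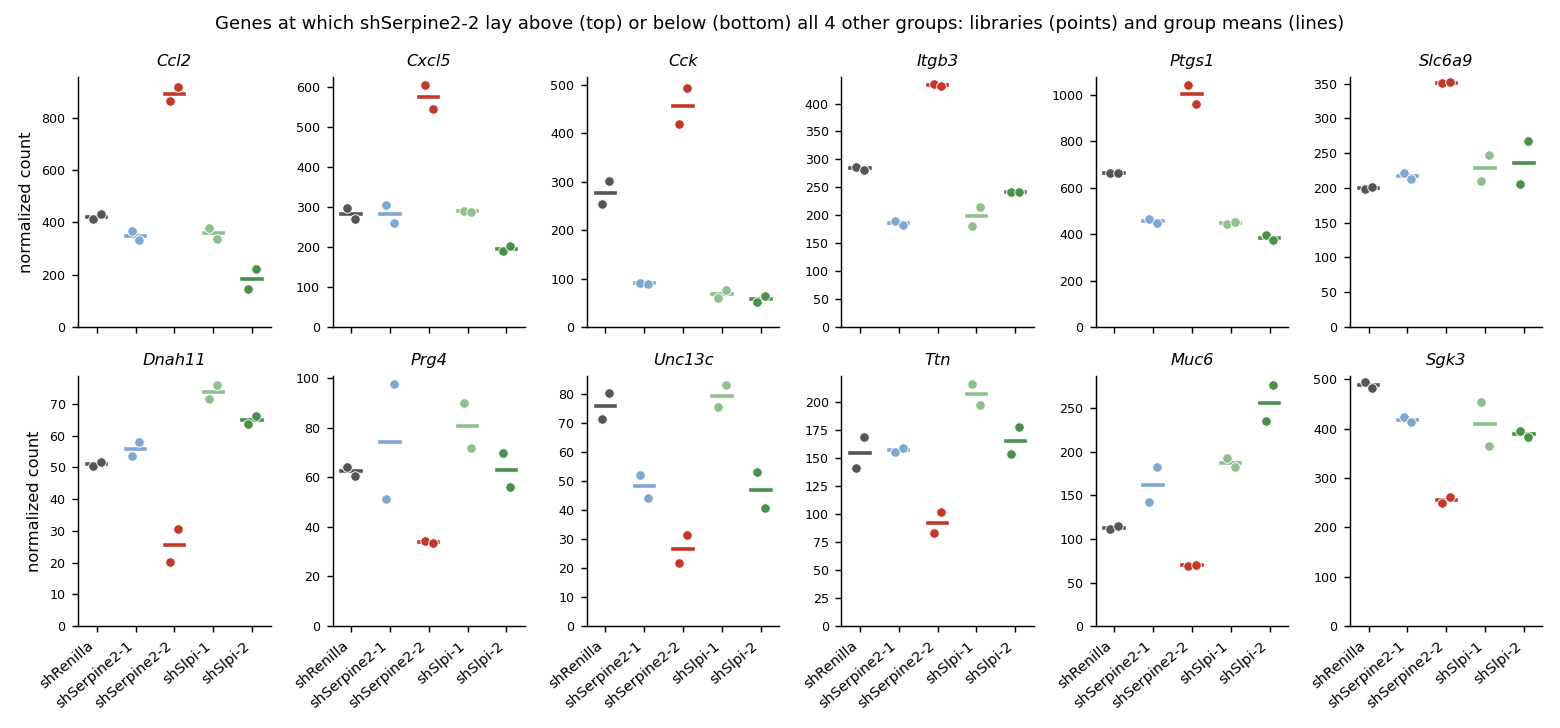
Normalized counts (vertical axes, from 0) in each of the 10 libraries of the 6 genes furthest above and the 6 furthest below all other groups, with a line at each group mean. Both shSerpine2-2 libraries lie above the other 8 for Ccl2 (862 and 917) and Cxcl5 (604 and 545), and below them for Sgk3 (249 and 261).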

How the data were processed

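RNA-seq libraries of 4T1-T cells, 2 for each of 5 hairpins, were analysed from the authors' deposited table, whose values are on a log2-like, variance-stabilized scale. The deposited table was made with Bowtie2, HTSeq, DESeq and the mm10 build, per the submitters' processing notes. Versions, settings and annotation: not given in the sources used here. The values were turned back into normalized counts and whole reads (tolerance 0.01), an inversion that rests on the values alone. Because the deposited values proved variance-stabilized, the test was run on the inverted ones. Depth was 15877431 to 24026620 reads, and a count of 0 allows 3 reads, or 2.30 to 3.48 normalized counts, for counting error only. Of 23479 entries, 27 had names turned into dates. limma 3.58.1 in R 4.3.3 (all 10 libraries, 5 groups, mean-variance trend) was fitted to log2(normalized count + 1) of 12299 genes (mean 10 or more), and p-values were adjusted by Benjamini-Hochberg over these genes, with a threshold of 0.05. The script was tested on simulated data. Fold changes on this scale understate those of weak genes.

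The text names the 12 largest rises and falls against control, and the 6 largest of the other comparisons, with a mean of at least 50 normalized counts and no overlap, and up to 4 called members per list and direction with the smallest p, leaving out gene models without a proper name. Trib3, Jdp2, Nupr1, Psph, Slc1a4, Atf4, Atf3, Ddit3, Gars, Iars, Dars, Farsb, Qars, Hmgcs1, Vim, Fn1, Vegfa, Plau, Lrp1 and Mmp3 fall outside this rule and were chosen after their values were seen. The comparison and the 35 gene lists were chosen with earlier results of these data known. Alternatives were other scalings, filters, pseudocounts and fits, and leaving out each library. Gene positions are from GENCODE M21 (GRCm38) and promoters from RefSeq (GRCm38.p6). Some genes that the naming rule takes are not reported here. Letters A and B were not treated as pairs.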

Additional observations from a re-analysis of the deposited data

Results flagged for a closer look

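The 2 Serpine2 lines differed at 28 of the genes named for their rank, or for changes in opposite directions, by the direct contrast of the lines (limma adjusted p under 0.05, as for 14.7% of all genes tested). Many of these genes were named because they ranked high in this contrast or stood apart from shSerpine2-1, so their number is set by that choice. Values are log2 differences, shSerpine2-2 minus shSerpine2-1, and both knockdown libraries of each line entered the test. Higher in shSerpine2-2 were Cck (2.32), Mgp (1.66), Rhox5 (1.40), Ccl2 (1.35), Ace (1.28), Itgb3 (1.21), Ptgs1 (1.13), Cxcl5 (1.03), Trmt61a (0.88), Wnt7a (0.72), Slc6a9 (0.69), Ung (0.44), Chac1 (0.43) and Slc7a11 (0.34). Lower in shSerpine2-2 were Nim1 (-1.24), Muc6 (-1.19), Dnah11 (-1.13), Phxr4 (-1.12), Tmprss11f (-1.08), Prg4 (-1.04), Mettl21c (-1.03), B3galt2 (-0.99), Smok4a (-0.97), Unc13c (-0.85), Ttn (-0.77), Trim43c (-0.75), Sgk3 (-0.71) and Rgs22 (-0.65). Ace, though below control in shSerpine2-2, lay above shSerpine2-1. The calls of Prg4, Rhox5, Tmprss11f and Unc13c in this contrast were lost under at least 1 alternative.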

How the results depend on the processing

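Against control, the count of 3384 genes ranged from 1610 to 4652 over the fits leaving out 1 library, with 2134 without shRenilla A, 1610 without shRenilla B, 1843 without shSerpine2-2 A and 1617 without shSerpine2-2 B. Against shSerpine2-1, the count of 1805 was 1133 with no filter on low counts, 712 with no mean-variance trend, 3599 with only the 2 groups compared, 3439 with only the shRenilla and shSerpine2 libraries, 3185 without both shSlpi-2 libraries, and 404 to 3181 leaving out 1 library (498, 635, 696 and 404 without shSerpine2-1 A, shSerpine2-1 B, shSerpine2-2 A and shSerpine2-2 B, and 3180 and 3181 without shSlpi-2 A and B). The 133 genes apart from all 4 groups became 84 with no filter, 72 with no trend and 35 to 231 leaving out 1 library (85, 76, 67, 73, 35, 39, 88, 88, 227 and 231 without A and B of shRenilla, shSerpine2-1, shSerpine2-2, shSlpi-1 and shSlpi-2, in that order). Leaving out a library leaves its group with 1 sample, assumed to vary like the other groups, and the shSlpi-2 libraries differed most from each other (chi-square per degree of freedom 10.9, against 1.55 to 2.76 in the other groups); beyond the fewer samples, the cause was not tested. That comparison could not be fitted with only the shRenilla and shSerpine2 libraries or without both shSlpi-2 libraries. Against control, 2278 genes were called when low counts were not filtered out and 2294 when the mean-variance trend was dropped. These fits kept 66.2% and 63.8% of the 3384 calls. Fitting just the 2 compared groups gave 4824, the shRenilla and shSerpine2 libraries together 4854, and all but the shSlpi-2 libraries 4664. The other fits that keep every library gave between 3251 and 3485. No gene called in the 3 comparisons had the opposite call under any alternative that was run. Of 106 genes named as changed against control, 88 were called under every alternative and 18 were lost under at least 1, 9 of them under an alternative that keeps every library (Ctso, Iars, Myc, Nop56, Nop58, Plaur, Prg4, Rhox5 and S100a4).

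Whether the letters A and B pair the libraries is not stated. Differences between A and B correlated between -0.20 and 0.17 across groups, which cannot tell whether same-lettered libraries were handled together. With the letter as a replicate block the counts were 3353, 1816 and 132, and that fit ended no call named in the text. Medians of the marker lists of endothelial, fibroblast and leukocyte genes, which hold 5 tested genes, changed sign under several alternatives, as did those of the protease inhibitors (0.11 to -0.03 with no filter) and of lists with medians near 0. With 2 libraries a group, genes of low count and changes smaller than the spread between libraries are limited by depth and number.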
